A study of Mus musculus with 24 samples.

Results

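The 34 genes described here make sterols and fatty acids or regulate the genes that do. They were taken by symbol from a table of 27179 genes, and all 34 had a row. They comprised 18 genes of the mevalonate and sterol arm, 11 of the fatty acid arm and 5 regulators, namely the SREBP genes Srebf1 and Srebf2, Scap, Insig1 and the sterol carrier Stard4. Bulk RNA-seq counts came from 24 libraries of epithelial cells sorted from the mammary glands of pubertal mice, in 12 groups of 2. Terminal end buds (TEBs), the bulbs at the front of duct growth in puberty, and mature ducts were separated by microdissection before sorting, and each was divided into 6 gates. In mice with the Elf5-rtTA-IRES-GFP allele, the gates were basal cells and GFP+ and GFP- luminal cells. In PR-cre/Rosa26-LSL-eYFP mice they were basal cells and YFP- and YFP+ luminal cells. All gates were lineage-negative and EpCAM+, with high CD29 in basal and low CD29 in luminal cells. GFP follows activity of the Elf5 promoter at the time of sorting. The PR-cre reporter marks a cell in which the recombinase has acted and its descendants, so YFP records past as well as present PR-cre activity. The labels give neither an age in weeks nor a treatment, and do not state that the paired libraries of a group are separate mice, so p-values measure only the spread between libraries, which may be technical. Library names repeat the mouse model, number and tissue across gates, so gates may share a preparation.

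Cells build cholesterol from acetyl-CoA through mevalonate, farnesyl diphosphate, squalene and lanosterol, and saturated fatty acids from acetyl-CoA through malonyl-CoA. Desaturases and elongases then shape the fatty acid chains. Both arms are transcribed under SREBP factors, membrane-bound proteins that the escort SCAP carries to the Golgi when sterols are scarce and that INSIG proteins hold back when sterols are plentiful. The Srebf2 product acts mainly on sterol genes and the Srebf1 product mainly on fatty acid genes. In the mammary gland these pathways are known above all from lactation, when alveolar cells make milk fat.

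Every member was detected in every library, with at least 49 counts, and all 34 passed the filter on low counts. Library totals ran from 31264622 to 52495208 counts, and 18109 genes were tested. Levels are given as CPM, the count per 1e6 counts of the TMM-scaled library size. Elf5 and Pgr placed the luminal gates in 2 pairs. Elf5 was between 410 and 1657 CPM in the GFP+ and YFP- libraries, called the progenitor side below, against 15.03 to 87.3 CPM in the GFP- and YFP+ libraries, called the hormone side. Pgr was between 13.2 and 73.3 CPM on the progenitor side, against 202 to 635 CPM on the hormone side. The 2 libraries of one group stood apart in GFP- ducts. There, 12 keratinocyte genes summed to 5245 CPM in replicate 2 and 341 CPM in replicate 1, and 8 basal markers summed to 3324 and 35.3 CPM in the same order. Most of that basal sum in replicate 2 was Krt5 (1962 CPM), Krt14 (1115 CPM) and Trp63 (202 CPM). The other basal markers, Acta2, Myh11, Cnn1, Oxtr and Tagln, were each at most 11.3 CPM there. YFP- TEB replicate 2 also held more of the keratinocyte transcripts than replicate 1, at 991 and 341 CPM. Results were therefore also computed without these 2 libraries. The defining adipocyte genes Adipoq, Plin1 and Cidec did not exceed 0.274 CPM in any library, while Lep reached 20.4 CPM and Fabp4 32.8 CPM, both in basal duct libraries of the Elf5 model. The 8 cycling genes summed to between 1099 and 2480 CPM in TEB libraries against 217 to 605 CPM in duct libraries. The 8 early response genes ran the other way, at 4171 to 10096 CPM in TEB and 11102 to 45460 CPM in duct libraries. The part of cycling or early response in the TEB results below was not tested.

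Per kilobase of gene model and averaged over all 24 libraries, the sterol arm ran from 4.25 CPM per kilobase for Tm7sf2 to 34.2 for Sqle. The fatty acid arm ran from 4.88 for Acss2 to 68.4 for Fads2, and the regulators from 4.98 for Stard4 to 55.2 for Srebf1. Scd1 and Scd2 are closely similar neighbours on chromosome 19, and how reads with several matches were treated is not given in the sources used here, so the split between these paralogs is uncertain. The library kit did not mark strand, so reads of a gene and an overlapping antisense gene cannot be told apart.

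**Figure D1:**
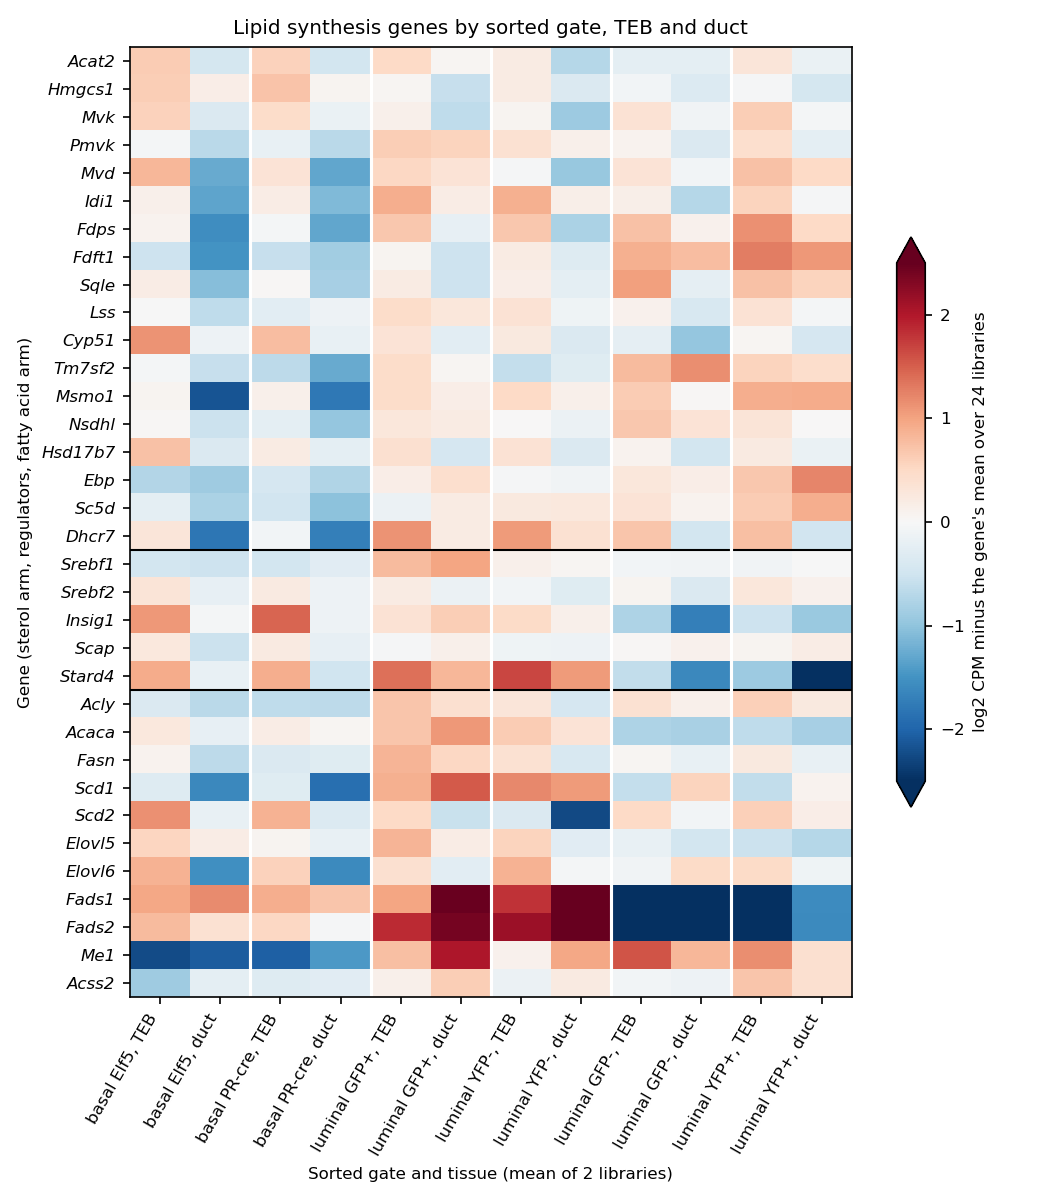
Rows are the 34 genes in the order sterol arm, regulators and fatty acid arm, and columns are the 12 groups, with the TEB group left of the duct group of each gate. Colour gives the mean log2 CPM of 2 libraries minus the gene's mean over 24 libraries. Most sterol genes are blue in basal ducts, where Msmo1 was 5.29 to 7.01 CPM, and Fads1 and Fads2 are blue on the hormone side, where Fads1 was at most 38.0 CPM.

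Promoters are shown because SREBP factors bind DNA close to the start of their targets, together with the CCAAT-binding factor NF-Y. RefSeq windows of GRCm38.p6, from 250 bases before to 50 after each annotated start, were matched by symbol to 27 members, that is, all but Fdps, Fdft1, Sqle, Stard4, Scd1, Scd2 and Fads1. Both strands were searched for a sterol element (TCACNCCAC), a CCAAT box (CCAAT) and an E-box (CACGTG), which do not contain one another. The CCAAT box was present in 14 of 15 sterol members, 3 of 4 regulators and 5 of 8 fatty acid members, against 41.1% of 27025 genes with a window. The sterol element was present in Hmgcs1 alone among the members, against 1.44% of all genes. The E-box was present in Hsd17b7, Sc5d, Dhcr7, Insig1, Scap and Elovl5, against 8.09% of all genes. A match describes letters and is not evidence of binding, and no match says only that these letters are not in the window. The 250 bases before the start are given for 2 sterol genes, 1 regulator and 1 fatty acid gene, in the direction of transcription, with matches to the motifs in capitals (ATTGG is the CCAAT box on the opposite strand). The windows lie at chr13:119690101-119690350 (plus strand) for Hmgcs1, chr8:64733579-64733828 (minus strand) for Msmo1, chr5:28071162-28071411 (plus strand) for Insig1 and chr11:120824548-120824797 (minus strand) for Fasn. The Fasn window precedes the start used by the RefSeq table, which lies inside the gene model that ends at 120825166.
Hmgcs1: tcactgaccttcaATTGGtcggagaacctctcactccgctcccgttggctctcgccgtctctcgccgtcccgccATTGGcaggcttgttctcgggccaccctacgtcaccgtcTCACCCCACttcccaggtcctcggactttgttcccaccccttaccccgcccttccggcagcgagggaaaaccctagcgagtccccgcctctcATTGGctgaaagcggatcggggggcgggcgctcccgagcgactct
Msmo1: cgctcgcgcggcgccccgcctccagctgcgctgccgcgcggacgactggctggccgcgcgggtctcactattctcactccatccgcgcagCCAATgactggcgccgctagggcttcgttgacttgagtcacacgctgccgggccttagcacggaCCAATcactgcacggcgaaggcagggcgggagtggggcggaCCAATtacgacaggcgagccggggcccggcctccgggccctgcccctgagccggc
Insig1: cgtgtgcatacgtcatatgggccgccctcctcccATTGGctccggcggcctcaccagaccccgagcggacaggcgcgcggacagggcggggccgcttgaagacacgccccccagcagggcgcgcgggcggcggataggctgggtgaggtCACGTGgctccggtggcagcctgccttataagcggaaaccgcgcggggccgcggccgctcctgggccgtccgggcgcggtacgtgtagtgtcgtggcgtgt
Fasn: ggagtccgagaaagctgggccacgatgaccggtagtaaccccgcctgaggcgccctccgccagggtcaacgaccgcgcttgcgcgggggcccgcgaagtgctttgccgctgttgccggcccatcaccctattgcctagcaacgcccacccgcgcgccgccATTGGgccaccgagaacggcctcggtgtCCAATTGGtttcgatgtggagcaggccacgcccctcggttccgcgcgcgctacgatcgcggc
Counting -1 as the last base before the start, Hmgcs1 has its sterol element at -137 to -129 and CCAAT boxes on the opposite strand that begin at -237, -176 and -45. Msmo1 has CCAAT boxes in the direction of transcription at -160, -96 and -55. Insig1 has a CCAAT box at -216 and an E-box at -101. Fasn has CCAAT boxes at -90, -62 and -59, and the last pair lies on opposite strands and overlaps.

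Basal cells of TEBs expressed more of the sterol arm than basal cells of ducts. Of 18 sterol genes, 14 rose and 0 fell in edgeR's quasi-likelihood test (Benjamini-Hochberg adjusted p under 0.05 over all 18109 genes), while 43.6% of all genes were called, 20.9% higher and 22.8% lower. No sterol gene was lower at an unadjusted p under 0.05 in edgeR, nor called lower by DESeq2 or limma-voom. The median log2 fold change of the arm was 0.76, against -0.04 over all genes. In the fatty acid arm 5 of 11 genes rose and 1 fell, with a median of 0.31, and 4 of 5 regulators rose.

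The changes spanned the sterol arm. Msmo1, the oxidase that removes methyl groups from lanosterol products, was 25.2 and 24.5 CPM in the Elf5 model and 23.5 and 28.3 CPM in the PR-cre model for TEBs, against 5.40 and 5.29 CPM in the Elf5 model and 7.01 and 6.67 CPM in the PR-cre model for ducts. Its TEB libraries lay above every duct library, and the gene rose 4.19-fold (log2 fold change 2.07 ± 0.14 SE, adjusted p = 1.01e-08). Dhcr7, the reductase that ends the route to cholesterol, was 29.3 and 29.4 CPM in the Elf5 model and 24.5 and 21.1 CPM in the PR-cre model in basal TEB cells, against 7.69 and 5.99 CPM in the Elf5 model and 7.56 and 6.94 CPM in the PR-cre model in basal duct cells. It rose 3.67-fold without overlap of the libraries (log2 fold change 1.88 ± 0.14 SE, adjusted p = 3.2e-08). Squalene epoxidase, Sqle, was 97.3 and 98.8 CPM in the Elf5 model and 91.2 and 85.2 CPM in the PR-cre model for TEBs, against 42.5 and 40.1 CPM in the Elf5 model and 53.4 and 43.7 CPM in the PR-cre model for ducts. It rose 2.08-fold (log2 fold change 1.05 ± 0.10 SE, adjusted p = 3.3e-07), again without overlap. Cyp51, the lanosterol demethylase, was 164 and 178 CPM in the Elf5 model and 134 and 134 CPM in the PR-cre model in TEB libraries, against 79.3 and 65.7 CPM in the Elf5 model and 72.5 and 66.2 CPM in the PR-cre model in duct libraries. The increase of 2.13-fold (log2 fold change 1.09 ± 0.11 SE, adjusted p = 5.84e-07) also separated all libraries.

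The enzymes before squalene changed in the same direction. Log2 fold changes were 1.05 ± 0.16 (SE) for Acat2, which joins acetyl-CoA units, 0.77 ± 0.19 for mevalonate kinase Mvk and 0.54 ± 0.14 for the next kinase Pmvk. They were 1.75 ± 0.28 for the decarboxylase Mvd (2.36 without Elf5-model duct replicate 1), 1.37 ± 0.15 for the isomerase Idi1, 1.45 ± 0.17 for farnesyl diphosphate synthase Fdps and 0.64 ± 0.11 for squalene synthase Fdft1, and all 7 were called. Mvd was 18.1 and 14.1 CPM in the Elf5 model and 11.1 and 11.7 CPM in the PR-cre model in TEB cells, against 6.80 and 2.04 CPM in the Elf5 model and 3.33 and 3.97 CPM in the PR-cre model in duct cells. Hmgcs1, which makes the substrate of the pathway's committed step, was 157 to 177 CPM in TEB libraries, against 104 to 123 CPM in duct libraries. These libraries did not overlap, but the gene was not called (log2 fold change 0.54 ± 0.22 SE, adjusted p = 0.0626), although it was with DESeq2 (adjusted p = 0.0471) and without the 2 keratinocyte libraries (0.000635). Among later enzymes, Nsdhl, a dehydrogenase that helps to remove the methyl groups, had a log2 fold change of 0.65 ± 0.15, the ketone reductase Hsd17b7 0.75 ± 0.23 and the desaturase Sc5d 0.55 ± 0.09, all called. The Hsd17b7 call ended without Elf5-model duct replicate 2 (adjusted p = 0.0574). Lanosterol synthase Lss (0.24 ± 0.14, adjusted p = 0.189), the reductase Tm7sf2 (0.47 ± 0.28, 0.194) and the isomerase Ebp (0.23 ± 0.15, 0.237) did not pass. In 15 sterol genes, 4 regulators and 3 fatty acid genes, every basal TEB library lay above every basal duct library, as it did in 18.1% of all genes tested.

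Among the regulators, Insig1, which holds SREBP precursors back, was 62.8 and 54.2 CPM in the Elf5 model and 66.1 and 85.1 CPM in the PR-cre model in basal TEB cells, against 27.7 and 25.2 CPM in the Elf5 model and 21.1 and 30.2 CPM in the PR-cre model in basal duct cells. The libraries did not overlap (log2 fold change 1.35 ± 0.19 SE, adjusted p = 2.55e-05). The sterol carrier Stard4 was 23.4 and 17.4 CPM in the Elf5 model and 22.5 and 17.7 CPM in the PR-cre model for TEBs, against 9.36 and 9.27 CPM in the Elf5 model and 7.72 and 7.27 CPM in the PR-cre model for ducts, without overlap (log2 fold change 1.28 ± 0.32 SE, adjusted p = 0.00407). The escort Scap was 118 to 125 CPM in TEB libraries, against 68.2 to 95.1 CPM in duct libraries (log2 fold change 0.61 ± 0.08 SE, adjusted p = 6.81e-06). Srebf2 was 255 to 293 CPM, against 175 to 217 CPM, and rose less (log2 fold change 0.44 ± 0.10 SE, adjusted p = 0.00112). Srebf1 was 141 to 189.8 CPM in TEB and 144 to 217 CPM in duct libraries, which overlapped (log2 fold change -0.05 ± 0.11 SE, adjusted p = 0.739).

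The fatty acid genes called higher were Elovl6, Scd1, Scd2, Elovl5 and, less firmly, Fasn. Fasn libraries separated in the Elf5 model only, at 286 and 261 CPM in TEBs against 174 and 155 CPM in ducts. In the PR-cre model Fasn was 188 and 213 CPM in TEBs against 221 and 196 CPM in ducts. Elovl6, which elongates palmitate, was 84.9 and 79.6 CPM in the Elf5 model and 74.2 and 60.6 CPM in the PR-cre model in TEB cells, against 18.7 and 13.0 CPM in the Elf5 model and 15.1 and 14.9 CPM in the PR-cre model in duct cells. It had the highest TEB-over-duct fold change of the 34 genes in basal cells, 4.83-fold without overlap (log2 fold change 2.27 ± 0.41 SE, adjusted p = 0.000427). Scd1, which makes monounsaturated fatty acids, was 146 and 143 CPM in the Elf5 model and 164 and 130.1 CPM in the PR-cre model for TEBs, against 62.6 and 54.8 CPM in the Elf5 model and 46.6 and 51.4 CPM in the PR-cre model for ducts (log2 fold change 1.44 ± 0.25 SE, adjusted p = 0.000276). Its paralog Scd2 was 566 and 533 CPM in the Elf5 model and 491 and 428 CPM in the PR-cre model for TEBs, against 227 and 210.4 CPM in the Elf5 model and 203 and 189.8 CPM in the PR-cre model for ducts (log2 fold change 1.28 ± 0.18 SE, adjusted p = 3.29e-05). Both separated all libraries. Elovl5, an elongase of polyunsaturated chains, was 68.9 to 104 CPM in TEB and 61.8 to 82.8 CPM in duct libraries, which overlapped, and rose by less (log2 fold change 0.31 ± 0.08 SE, adjusted p = 0.00688). Fatty acid synthase Fasn was called at 0.34 ± 0.12 (adjusted p = 0.032), but not with relative log expression scaling (0.0711), with DESeq2 (0.0609) or in 4 of 24 fits that left out 1 library. Malic enzyme Me1, a source of NADPH, fell by a log2 change of -0.39 ± 0.11 SE (adjusted p = 0.00823), a call lost with limma-voom (0.102) and in 3 of 24 such fits. ATP citrate lyase Acly (0.15 ± 0.09), acetyl-CoA carboxylase Acaca (0.30 ± 0.16), the acetyl-CoA synthetase Acss2 (-0.34 ± 0.15) and the desaturases Fads1 (0.01 ± 0.29) and Fads2 (0.45 ± 0.27) did not pass.

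The basal TEB and duct libraries also differed in markers. The 8 luminal progenitor markers summed to between 296 and 1041 CPM in basal TEB libraries, against 45.8 to 119 CPM in basal duct libraries and 4054 to 4953 CPM on the luminal progenitor side of TEBs. The 8 basal markers summed to between 6058 and 13399 CPM in basal TEB libraries, against 30092 to 32981 CPM in basal duct libraries. Of these lists, 3 progenitor markers rose and 4 fell, and 0 basal markers rose and 6 fell. Csn3, a casein gene, made up most of the progenitor sums in basal TEBs, at 195 to 915 CPM against 9.38 to 49.1 CPM in basal ducts, and Kit was 56.8 to 86.8 CPM against 4.93 to 7.76 CPM. The 8 sebocyte markers, a skin gland cell type rich in lipid enzymes, summed to between 68.1 and 85.6 CPM in basal TEB libraries, against 37.3 to 50.3 CPM in basal duct libraries (of 7 tested, 2 rose and 0 fell). Of these sums the sterol storage gene Soat1 alone was 60.4 to 78.2 CPM, against 34.6 to 44.4 CPM. Of 8 endothelial markers 0 rose and 5 fell (9.10 to 18.1 CPM in basal TEB, against 8.12 to 94.6 CPM in basal duct libraries), of 8 immune markers 0 rose and 4 fell (3.09 to 5.0 against 14.9 to 35.8 CPM), and of 8 fibroblast markers 0 rose and 1 fell (378 to 1245 against 334 to 899 CPM). The 12 adipocyte markers summed to between 10.1 and 16.6 CPM, against 22.6 to 52.1 CPM (of 8 tested, 0 rose and 2 fell). The part of these markers in the basal results was not tested. Members differed in where the basal TEB libraries lay beside the luminal ones. Cyp51 was at least 134 CPM in basal TEB against at most 108 CPM in the 16 luminal libraries, and Insig1 at least 54.2 against at most 44.1 CPM. Msmo1 ran the other way, at 23.5 to 28.3 CPM in basal TEB against 30.1 to 53.1 CPM in luminal TEB libraries. So did Dhcr7, at 21.1 to 29.4 against 34.6 to 57.2 CPM. In bulk samples, a difference in the number of cells of a type and one in RNA per cell cannot be told apart.

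**Figure D2:**
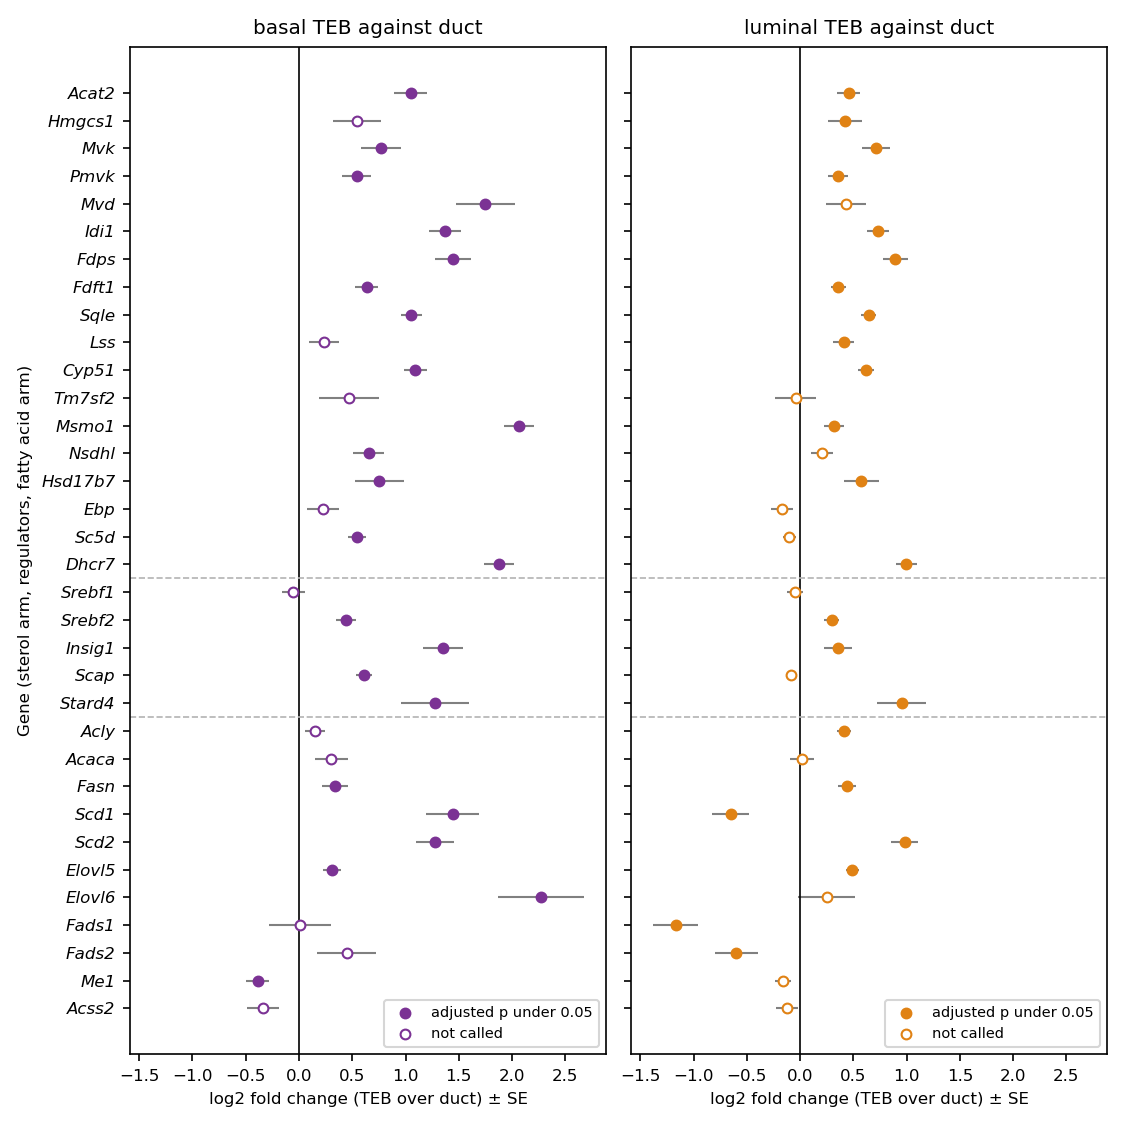
Points are log2 fold changes of TEB over duct with their SE for each of the 34 genes, in basal cells (left) and luminal cells (right), filled where the adjusted p was under 0.05. Most sterol genes lie to the right of 0 in both panels, with Msmo1 at 2.07 in basal and 0.32 in luminal cells, while fatty acid genes spread to both sides in luminal cells, from -1.17 for Fads1 to 0.98 for Scd2.

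Luminal TEB cells also expressed more of the sterol arm than luminal duct cells, by smaller folds. Of 18 sterol genes 13 rose and 0 fell, where 38.7% of all genes were called, 20% higher and 18.6% lower. At an unadjusted p under 0.05, 14 were higher and 0 lower, and DESeq2 and limma-voom also called 0 lower. The median log2 fold change was 0.43 in the sterol arm and 0.02 in the fatty acid arm, against 0.00 over all genes. In the fatty acid arm 4 genes rose and 3 fell, and 3 of 5 regulators rose. The luminal TEB and duct libraries differed in markers too. Of 8 luminal progenitor markers 0 rose and 7 fell, with sums of 4054 to 4953 CPM on the progenitor side of TEBs, against 10990 to 19768 CPM in ducts. Of 8 basal markers 1 rose and 5 fell (13.9 to 868 CPM in TEB, against 35.3 to 3324 CPM in duct libraries), and of 8 fibroblast markers 4 rose and 1 fell (15.2 to 171 against 24.2 to 143 CPM). The basal sums of 868 and 3324 CPM were those of the 2 keratinocyte libraries. The part of these markers in the luminal results was not tested. There were 11 sterol genes higher in both the basal and the luminal comparison, along with Srebf2, Insig1, Stard4, Fasn, Scd2 and Elovl5. Of all genes, 10.9% were higher in both. The basal and luminal libraries are separate but share a fit and may share preparations, so the comparisons were not shown to be independent.

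Dhcr7 was 34.6 to 57.2 CPM (median 44.6) in luminal TEB libraries, against 15.7 to 33.6 CPM (median 20.5) in luminal duct libraries. It rose 2.00-fold (log2 fold change 1.00 ± 0.10 SE, adjusted p = 7.95e-07), and it was the one member whose 8 TEB libraries all lay above the 8 duct libraries, as 2.45% of all genes did. Dhcr7 was also called higher in each of the 6 gates tested alone, where its log2 fold change ran from 0.69 to 2.10. The share of all genes called higher in each gate at once was not computed. Fdps was 31.4 to 52.9 CPM (median 38.4) for TEBs, against 11.7 to 34.3 CPM (median 20.2) for ducts, with overlap at the upper end of the ducts (log2 fold change 0.90 ± 0.12 SE, adjusted p = 1.46e-05). Sqle was 84.1 to 182 CPM (median 120.1) in TEB libraries, against 56.4 to 129 CPM (median 72.6) in duct libraries, with overlap (log2 fold change 0.64 ± 0.07 SE, adjusted p = 2.28e-06). Within the progenitor side its TEB libraries were at 84.1 to 112 CPM, against 56.4 to 74.1 CPM in duct libraries, and within the hormone side at 129 to 182 CPM, against 67.2 to 129 CPM. Cyp51 was 61.0 to 108 CPM (median 88.1), against 37.9 to 66.6 CPM (median 60.9) (log2 fold change 0.62 ± 0.08 SE, adjusted p = 8.26e-06).

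Another 8 enzymes of the sterol arm rose in luminal cells, at log2 fold changes between 0.32 and 0.73. They were Acat2 (0.46 ± 0.11), Mvk (0.71 ± 0.13), Pmvk (0.36 ± 0.09), Idi1 (0.73 ± 0.11), Fdft1 (0.36 ± 0.07), Lss (0.41 ± 0.10), Msmo1 (0.32 ± 0.09) and Hsd17b7 (0.58 ± 0.16). The Msmo1 call ended without YFP+ TEB replicate 1 (adjusted p = 0.0527). Hmgcs1 (log2 fold change 0.42 ± 0.16 SE, adjusted p = 0.0461) was called as higher, a call lost in 20 of 24 fits that left out 1 library, with relative log expression scaling (0.0687), with upper-quartile scaling (0.0644) and with no filter (0.0642). Mvd (0.43 ± 0.19), Nsdhl (0.20 ± 0.10), Tm7sf2 (-0.04 ± 0.19), Ebp (-0.17 ± 0.10) and Sc5d (-0.10 ± 0.06) were not called. Without the 2 keratinocyte libraries, 14 sterol genes rose and 1 fell, the one being Ebp (-0.26, adjusted p = 0.0167).

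Of the regulators, Stard4 was 5.30 to 37.2 CPM (median 17.4) in luminal TEB libraries, against 1.24 to 22.2 CPM (median 13.3) in luminal duct libraries (log2 fold change 0.95 ± 0.23 SE, adjusted p = 0.00374). Within the progenitor side the TEB libraries (26.1 to 37.2 CPM) lay above the duct libraries (18.5 to 22.2 CPM), while within the hormone side (5.30 to 8.71 against 1.24 to 8.05 CPM) they overlapped. Srebf2 was 194 to 292 CPM (median 236) for TEBs, against 149.5 to 244 CPM (median 187) for ducts, with overlap (log2 fold change 0.30 ± 0.07 SE, adjusted p = 0.00218). Insig1 was 13.4 to 39.4 CPM (median 28.4), against 5.82 to 44.1 CPM (median 21.7), and its call (log2 fold change 0.35 ± 0.13 SE, adjusted p = 0.0463) was lost in 19 of 24 fits that left out 1 library. It was also lost with DESeq2 (0.0632), both other scalings (0.0801 and 0.0778), no filter (0.0565) and the replicate block (0.0603). Scap was 95.2 to 115 CPM (median 101) in TEB and 91.8 to 123 CPM (median 109) in duct libraries and was not called (log2 fold change -0.08 ± 0.05 SE, adjusted p = 0.26). Srebf1 was 200.2 to 415 CPM (median 229) in TEB and 206 to 466 CPM (median 226) in duct libraries, and was not called either (log2 fold change -0.05 ± 0.07 SE, adjusted p = 0.712).

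The fatty acid arm split in luminal cells. Scd2 was 175 to 461 CPM (median 334) in TEB libraries, against 50.3 to 322 CPM (median 181) in duct libraries (log2 fold change 0.98 ± 0.13 SE, adjusted p = 1.91e-05). Elovl5 was 45.5 to 135 CPM (median 81.1) for TEBs, against 38.2 to 87.1 CPM (median 54.4) for ducts (log2 fold change 0.49 ± 0.06 SE, adjusted p = 8.01e-06). Acly, which supplies cytosolic acetyl-CoA, was 290.1 to 421 CPM (median 328), against 173 to 364 CPM (median 271) (log2 fold change 0.41 ± 0.07 SE, adjusted p = 0.00011). Fasn was 236 to 507 CPM (median 328), against 180.3 to 456 CPM (median 225) (log2 fold change 0.44 ± 0.09 SE, adjusted p = 0.000564). In each of these 4 genes the TEB and duct libraries overlapped, and each rose. Fads1, a desaturase of polyunsaturated chains, fell to 3.499 to 309 CPM (median 80.7) in TEB cells, against 5.51 to 536 CPM (median 227) in duct cells (log2 fold change -1.17 ± 0.21 SE, adjusted p = 0.000592). Fads2, the desaturase before it, fell as well (log2 fold change -0.60 ± 0.20 SE, adjusted p = 0.0304), but not in 10 of 24 fits that left out 1 library nor without the 2 keratinocyte libraries (adjusted p = 0.107). Scd1 was 109 to 425 CPM (median 232) in TEB libraries, against 142 to 541 CPM (median 377) in duct libraries, with overlap, and fell (log2 fold change -0.65 ± 0.17 SE, adjusted p = 0.00779) while Scd2 rose. The decrease of Scd1 was not shared by YFP- cells, at 403 and 425 CPM in TEB against 365 and 389 CPM in duct libraries. In GFP- cells the duct libraries were 142.4 and 487.7 CPM, the latter in keratinocyte library replicate 2. Elovl6 was not called (log2 fold change 0.25 ± 0.27 SE, adjusted p = 0.543). Its GFP- duct replicate 2 held 168.6 CPM beside 23.4 CPM in replicate 1, and without the 2 keratinocyte libraries Elovl6 rose by 0.72 on the log2 scale (adjusted p = 2.15e-05). Acaca (0.02 ± 0.11), Me1 (-0.16 ± 0.07) and Acss2 (-0.12 ± 0.11) were not called. Beside the fatty acid genes, 8 genes of milk production summed to between 1623 and 2756 CPM on the progenitor side of TEBs, against 4015 to 28885 CPM in ducts, and to between 58.4 and 75.5 CPM on the hormone side of TEBs, against 171 to 611 CPM in ducts. Of these genes 7 fell and 0 rose. The part of the milk genes in the luminal results was not tested.

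Tested gate by gate, sterol genes called higher numbered 15 of 18 in basal cells of the Elf5 model (36.4% of all genes called, 17.2% higher and 19.2% lower) and 10 in those of the PR-cre model (24.7%, 12% and 12.7%). In luminal cells, with the same shares of all genes in brackets, they numbered 6 in GFP+ (22.8%, 11.8% and 10.9%), 8 in YFP- (18.4%, 10.5% and 7.97%), 5 in GFP- (18.5%, 8.85% and 9.65%) and 2 in YFP+ cells (7.86%, 4.61% and 3.25%). The one sterol gene called lower in a gate was Sc5d, in GFP+ cells. Each gate rests on 2 libraries against 2, and leaving out 1 library moved the number called in the luminal gates between 1 and 10. It was 1 in GFP+ cells without duct replicate 2 and 1 in YFP- cells without TEB replicate 1 or duct replicate 1. A log2 fold change above 0 in all 6 gates was found for 14 of 18 sterol genes, for Srebf2 and Stard4, and for Acly, Scd2 and Elovl5. In single gates between 45.5% and 50.3% of all genes were above 0. The share above 0 in all 6 was not computed, so this count is not read as a result about the members. With upper-quartile scaling the share of called genes that were higher moved by more than 10 points in 2 gates. This share of called genes went to 36.8% from the main scaling's 47.8% in GFP- cells and to 44.7% from its 58.6% in YFP+ cells. With limma-voom it moved the other way in GFP- cells, to 58.6%, and with DESeq2 it was 47.7% in YFP+ cells.

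The signed log2 fold change of TEB over duct was higher in basal than in luminal cells for 8 sterol genes, 2 regulators and 4 fatty acid genes, and lower for 0 members, in the edgeR test of the difference itself (26.3% of all genes called, 11.4% higher in basal and 14.9% lower). At an unadjusted p under 0.05, 0 sterol genes and regulators and 1 fatty acid gene were lower in basal cells, and DESeq2 and limma-voom called 0 members lower. Msmo1 rose 4.19-fold in basal and 1.24-fold in luminal cells, a difference of 1.75 ± 0.17 SE on the log2 scale (adjusted p = 9.56e-07). Sc5d was 35.8 and 35.8 CPM in the Elf5 model and 30.3 and 29.9 CPM in the PR-cre model in basal TEB cells, against 21.7 and 27.2 CPM in the Elf5 model and 19.7 and 21.7 CPM in the PR-cre model in basal duct cells, and 37.3 to 69.5 CPM (median 51.3) in luminal TEB, against 39.99 to 81.0 CPM (median 49.2) in luminal duct libraries. The basal libraries did not overlap, the luminal ones did, and the difference was 0.65 ± 0.11 (adjusted p = 0.000226). Scd1 went up in basal cells and down in the mean of the luminal gates, though not in YFP- cells, with a difference of 2.09 ± 0.30 (adjusted p = 0.000135). Elovl6, which was 39.5 to 87.4 CPM (median 62.9) in luminal TEB and 23.4 to 169 CPM (median 42.5) in luminal duct libraries, differed by 2.02 ± 0.48 (adjusted p = 0.00634). The 169 CPM was that of GFP- duct replicate 2, and without the 2 keratinocyte libraries luminal Elovl6 rose by 0.72 on the log2 scale. Over the alternative fits (other settings or libraries left out) the difference ran from 1.54 to 2.28 for Elovl6 and from 1.82 to 2.30 for Scd1. Of the regulators, Insig1 (1.00 ± 0.23) and Scap (0.69 ± 0.09) differed. The other called differences in the sterol arm were those of Acat2, Mvd, Idi1, Sqle, Cyp51 and Dhcr7. For Fads1 (0.01 ± 0.29 in basal and -1.17 ± 0.21 in luminal cells) and Fads2 (0.45 ± 0.27 and -0.60 ± 0.20) the called change was the decrease in luminal cells. Without the 2 keratinocyte libraries Acat2 (adjusted p = 0.0536) and Fads2 (0.0761) lost the call, and with 1 library left out Fads2 lost it in 14, Fads1 in 3 and Acat2 in 2 of 24 fits. The Mvd difference was 1.31, and 1.94 without Elf5-model basal duct replicate 1.

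Between the luminal lineages the 2 desaturases of polyunsaturated chains, Fads1 and Fads2, had the largest differences of the 34 genes, in ducts and in TEBs. In ducts, the progenitor side was higher in 6 and lower in 1 of 11 fatty acid genes, higher in 4 and lower in 8 of 18 sterol genes, and higher in 3 of 5 regulators (47.9% of all genes called, 24.6% higher and 23.3% lower). In TEBs the counts were 6 and 2 of 11, 3 and 5 of 18, and 3 and 0 of 5 (47.6%, with 24.6% higher and 23% lower). The log2 difference is given as progenitor side minus hormone side. Its median was 0.54 in ducts and 0.47 in TEBs for the fatty acid arm and -0.22 and -0.28 for the sterol arm, against 0.00 and 0.06 over all genes. No regulator was lower on the progenitor side at an unadjusted p under 0.05 in edgeR, nor by DESeq2 or limma-voom.

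Fads1 was 522 and 416 CPM in GFP+ and 519 and 536 CPM in YFP- duct cells, against 5.51 and 16.4 CPM in GFP- and 38.0 and 21.2 CPM in YFP+ duct cells. It was 27.6-fold higher on the progenitor side of ducts (log2 fold change 4.79 ± 0.34 SE, adjusted p = 4.25e-08) and 28.0-fold higher in TEBs (log2 fold change 4.80 ± 0.34 SE, adjusted p = 4.91e-08). Fads2, its neighbour on chromosome 19, was 265 and 225 CPM in GFP+ and 309 and 352 CPM in YFP- duct cells, against 4.37 and 5.52 CPM in GFP- and 22.6 and 10.4 CPM in YFP+ duct cells. In TEBs Fads2 was 168 to 206 CPM on the progenitor side, against 3.15 to 10.8 CPM on the hormone side, and Fads1 146 to 309 against 3.499 to 15.5 CPM. For Fads2 the differences were 31.4-fold in ducts (log2 fold change 4.97 ± 0.33 SE, adjusted p = 1.62e-08) and 30.7-fold in TEBs (log2 fold change 4.94 ± 0.33 SE, adjusted p = 2.03e-08). For both genes the lowest progenitor side library lay far above the highest hormone side library in either tissue. Elovl5, which elongates the products of Fads2, was 99.1 to 135 CPM on the progenitor side of TEBs, against 45.5 to 63.1 CPM on the hormone side, without overlap (log2 fold change 1.06 ± 0.09 SE, adjusted p = 2.75e-08).

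Acaca, which makes malonyl-CoA, was 73.8 to 171 CPM on the progenitor side of ducts, against 29.2 to 43.9 CPM on the hormone side, and 87.1 to 122 against 35.6 to 44.5 CPM in TEBs. It did not overlap in either tissue (log2 difference 1.54 ± 0.16 SE in ducts and 1.37 ± 0.16 in TEBs). Scd1 was higher on the progenitor side, by 0.86 in ducts and 1.65 in TEBs, and Scd2 lower, by a log2 difference of -1.48 and -0.49. Scd2 was 50.3 and 54.9 CPM in YFP- duct cells and 185 and 158 CPM in GFP+ duct cells, against 322 and 177 CPM in GFP- and 277 and 287 CPM in YFP+ duct cells. Its GFP+ values overlap those of GFP- cells, and the YFP- values lie below all others. Fasn was called higher in TEBs (0.47 ± 0.12) and not in ducts (0.27 ± 0.12), and Me1 was higher in ducts (log2 fold change 0.87 ± 0.11 SE, adjusted p = 2.69e-06) and lower in TEBs (log2 fold change -0.94 ± 0.11 SE, adjusted p = 1.19e-06). Acly, Acss2 and Elovl6 were not called in either tissue. Scd1 in GFP- duct replicate 2 was 487.7 CPM beside 142.4 CPM in replicate 1. Without the 2 keratinocyte libraries the log2 difference of Elovl6 in ducts turned from -0.65 (adjusted p = 0.192) to 0.35 (0.0478).

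Among the sterol enzymes, squalene synthase Fdft1 was 26.0 to 30.4 CPM on the progenitor side of ducts, against 61.6 to 84.3 CPM on the hormone side (log2 fold change -1.35 ± 0.11 SE, adjusted p = 1.94e-08). In TEBs it was 37.6 to 48.8 against 63.5 to 94.9 CPM (log2 fold change -0.95 ± 0.11 SE, adjusted p = 1.18e-06). Neither tissue showed overlap. Dhcr7 ran the other way in ducts, at 22.2 to 33.6 CPM on the progenitor side, against 15.7 to 18.9 CPM on the hormone side (log2 fold change 0.78 ± 0.14 SE, adjusted p = 0.000154). Sqle was lower on the progenitor side in TEBs (log2 fold change -0.70 ± 0.10 SE, adjusted p = 1.59e-05), at 84.1 to 112 against 129 to 182 CPM. Also lower on the progenitor side of ducts were Mvk, Fdps, Sqle, Tm7sf2, Msmo1, Ebp and Sc5d, by log2 differences between -0.94 and -0.27. The Msmo1 call was lost without the 2 keratinocyte libraries (adjusted p = 0.224) and in 10 of 24 fits that left out 1 library. Pmvk, Idi1 and Cyp51 were higher, by 0.65, 0.52 and 0.38. In TEBs the genes lower beside Fdft1 and Sqle were Tm7sf2, Ebp and Sc5d, and those higher were Idi1, Cyp51 and Dhcr7, of which Dhcr7 (0.37 ± 0.13, adjusted p = 0.0307) lost its call in 19 of 24 fits that left out 1 library, Tm7sf2 in 8, Ebp in 4 and Cyp51 in 2. Msmo1 (adjusted p = 0.0715) and Nsdhl (0.0512), not called in TEBs, were called in 17 of those fits each. The regulators higher on the progenitor side were Srebf1, Insig1 and Stard4. Stard4 was 19.1 and 18.5 CPM in GFP+ and 22.2 and 21.95 CPM in YFP- duct cells, against 1.48 and 8.05 CPM in GFP- and 1.24 and 1.47 CPM in YFP+ duct cells. It was 8.01-fold higher on the progenitor side (log2 fold change 3.0 ± 0.35 SE, adjusted p = 2.88e-06), and 14.1-fold without GFP- duct replicate 2, which stood above the other hormone side libraries. Insig1 differed by 1.64 ± 0.19 in ducts and 1.04 ± 0.19 in TEBs, and Srebf1 by 0.57 ± 0.11 and 0.54 ± 0.11.

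**Figure D3:**
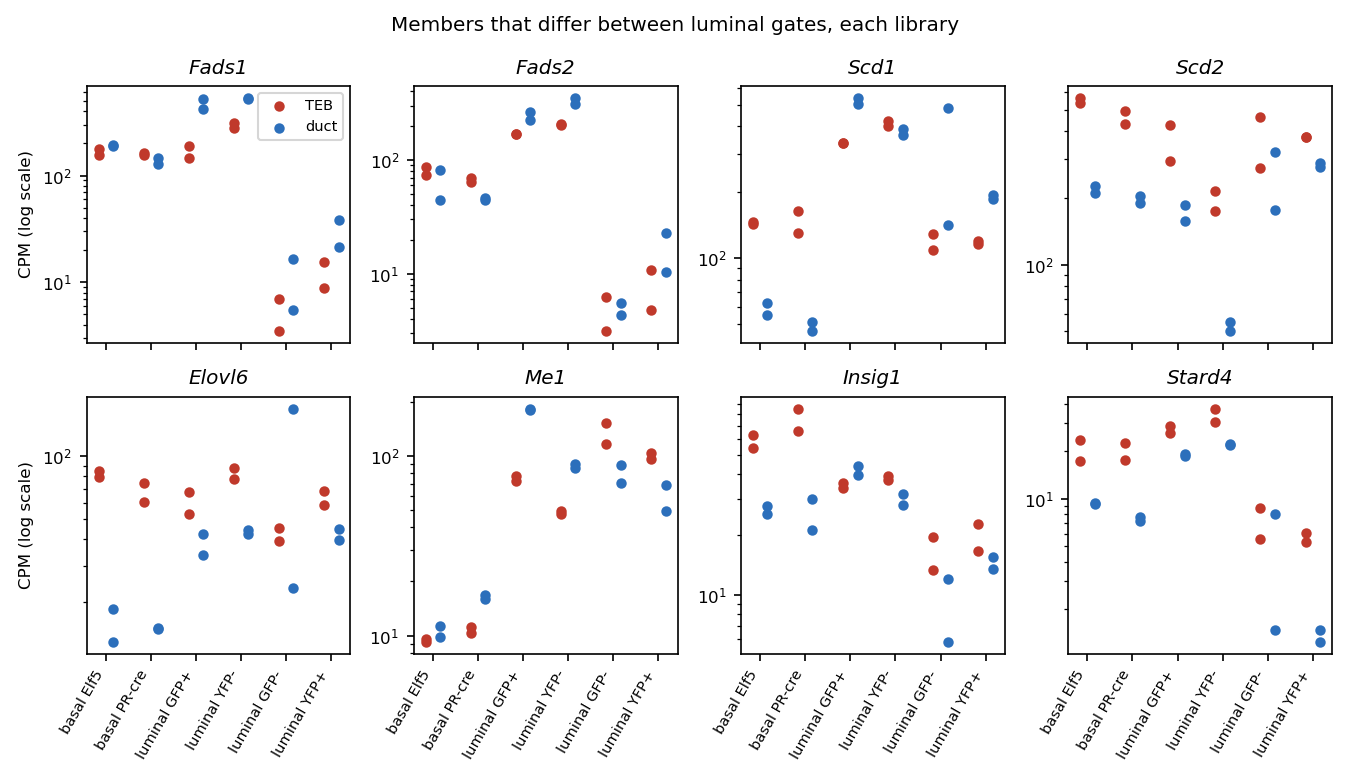
Each point is 1 library (CPM, log scale) in the 6 gates, with TEB libraries left of duct libraries, for 8 members. Fads1 and Fads2 are lower in every GFP- and YFP+ library than in any library of the other gates, Me1 is lowest in basal cells, and 1 GFP- duct library stands high for Scd1 (487.7 CPM) and Elovl6 (168.6 CPM).

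The TEB difference itself differed between the lineages in 3 fatty acid genes and 0 sterol genes or regulators (10.6% of all genes called, 4.93% higher and 5.68% lower). At an unadjusted p under 0.05 edgeR gave 2 sterol genes and 1 regulator, and DESeq2 called 1 sterol gene, Fdft1 (adjusted p = 0.0479), while limma-voom called 0. Me1 fell to 77.0 and 72.5 CPM in GFP+ and 49.2 and 47.5 CPM in YFP- TEB cells, against 183 and 179 CPM in GFP+ and 89.5 and 85.5 CPM in YFP- duct cells. On the hormone side it was 152 and 117 CPM in GFP- and 103 and 95.4 CPM in YFP+ TEB cells, against 88.8 and 70.5 CPM in GFP- and 49.5 and 69.2 CPM in YFP+ duct cells. Every progenitor side TEB library was lower than its gate's duct libraries and every hormone side TEB library higher, a difference of -1.81 ± 0.15 SE (adjusted p = 1.84e-06). Scd2 (0.99 ± 0.25, adjusted p = 0.0191) and Elovl5 (0.51 ± 0.12, 0.0114) rose more on the progenitor side. Fdft1 (0.40 ± 0.15, 0.0999) and Fdps (0.53 ± 0.23, 0.165) were not called. Fdps was 31.4 to 39.6 CPM on the progenitor side of TEBs, against 11.7 to 21.7 CPM in ducts, and 32.2 to 52.9 CPM on the hormone side of TEBs, against 18.7 to 34.3 CPM in ducts. Without the 2 keratinocyte libraries Fdft1 and Fdps were called (adjusted p = 0.0371 and 0.0426 in that order), and Stard4 (-1.50, 0.000848) and Insig1 (-0.88, 0.0217) were called lower.

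In ducts basal cells were lower than luminal cells in 13 and higher in 2 of 18 sterol genes, and lower in 6 and higher in 3 of 11 fatty acid genes (63.3% of all genes called, 33.5% higher and 29.8% lower). In TEBs the counts were 12 and 3, and 5 and 3 (58.8%, with 30.8% higher and 28% lower). The median log2 difference of the sterol arm was -0.99 in ducts and -0.48 in TEBs, against 0.02 and 0.04 over all genes. Msmo1 was 5.29 to 7.01 CPM in basal duct libraries, against 19.2 to 45.9 CPM (median 27.6) in luminal duct libraries (log2 fold change -2.29 ± 0.13 SE, adjusted p = 1.08e-10). Sc5d was 19.7 to 27.2 CPM, against 39.99 to 81.0 CPM (median 49.2) (log2 fold change -1.28 ± 0.08 SE, adjusted p = 3.22e-10), and neither gene overlapped. Me1 was 9.87 to 16.8 CPM in basal and 49.5 to 183 CPM (median 87.1) in luminal duct libraries (log2 fold change -2.82 ± 0.11 SE, adjusted p = 5.14e-13), and 9.23 to 11.2 CPM in basal and 47.5 to 152 CPM (median 86.2) in luminal TEB libraries (log2 fold change -3.05 ± 0.11 SE, adjusted p = 2.33e-13). Scd1 was 46.6 to 62.6 CPM in basal and 142 to 541 CPM (median 377) in luminal duct libraries (log2 fold change -2.62 ± 0.24 SE, adjusted p = 2.17e-07). In TEBs Fdft1 was 23.95 to 27.7 CPM in basal and 37.6 to 94.9 CPM (median 56.1) in luminal libraries (log2 fold change -1.16 ± 0.10 SE, adjusted p = 1.35e-08). Acly was 149 to 195 CPM in basal and 290.1 to 421 CPM (median 328) in luminal TEB libraries (log2 fold change -0.99 ± 0.08 SE, adjusted p = 1.77e-08). Cyp51 was higher in basal TEB cells, at 134 to 178 CPM in basal and 61.0 to 108 CPM in luminal libraries (log2 fold change 0.82 ± 0.09 SE, adjusted p = 4.87e-07). Srebf1 and Scap were lower in basal duct cells. In basal TEB cells Srebf1 was lower (-0.64 ± 0.09), Insig1 higher (1.37 ± 0.16) and Scap higher (0.25 ± 0.07).

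The balance of the arms across the 12 groups was described by an arm score, the mean over an arm's genes of log2 CPM centred on each gene's mean over 24 libraries. No test was made on it. In basal cells the sterol score was 0.21 and 0.03 in TEBs of the Elf5 and PR-cre models, against -0.88 and -0.82 in ducts. The fatty acid score was 0.08 and -0.05 in those TEBs, against -0.49 and -0.55 in ducts. In TEBs of the 4 luminal gates the sterol score lay between 0.27 and 0.57, against -0.26 to 0.23 in ducts, and within each gate both TEB libraries were above both duct libraries. The fatty acid score was 0.78 in GFP+ TEBs and 0.68 in YFP- TEBs, against 0.95 and 0.42 in their ducts, and -0.61 and -0.32 in GFP- and YFP+ TEBs, against -0.55 and -0.34 in their ducts. By library, the GFP- scores were -0.41 and -0.80 in TEBs, against -0.82 and -0.28 in ducts, the last in keratinocyte library replicate 2. Scores were not computed without the 2 keratinocyte libraries, so the direction in GFP- cells is uncertain. The sterol score minus the fatty acid score was between -0.97 and -0.38 in the 4 progenitor side groups, between 0.46 and 0.98 in the 4 hormone side groups, at 0.13 and 0.07 in basal TEBs and at -0.39 and -0.27 in basal ducts. Fads1 and Fads2 weigh on these means. Without these 2 genes, a choice made after seeing the data, the fatty acid score was 0.64 in GFP+ and 0.39 in YFP- TEBs, against 0.62 and -0.09 in their ducts, and 0.09 in GFP- and 0.22 in YFP+ TEBs, against 0.04 and -0.06 in their ducts. The TEB minus duct difference in YFP- cells was then larger than the YFP- minus YFP+ difference in either tissue. The balance of the arms was then between -0.64 and -0.12 on the progenitor side and between -0.13 and 0.35 on the hormone side, which overlapped at GFP- ducts. The overlapping groups, YFP- TEBs at -0.12 and GFP- ducts at -0.13, each held a keratinocyte library. With medians over all genes of each arm it was between -0.60 and -0.31 on the progenitor side and between 0.13 and 0.42 on the hormone side.

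**Figure D4:**
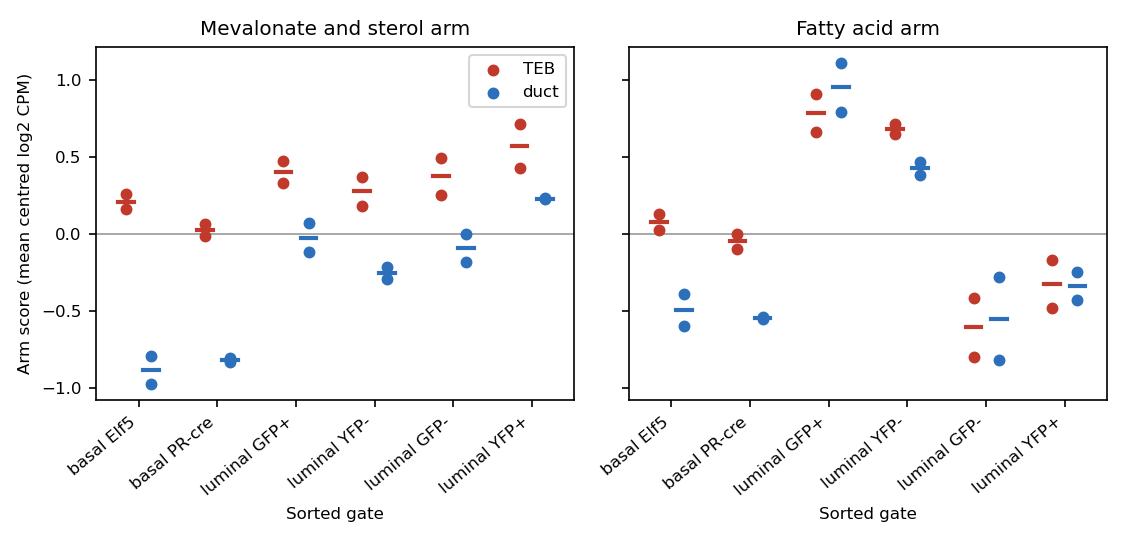
Points are the arm score of each library (mean centred log2 CPM over the genes of the arm) and bars the mean of 2 libraries, for the sterol arm (left) and the fatty acid arm (right), with TEB left of duct in each gate. In the sterol panel every gate has its TEB points above its duct points, and in the fatty acid panel the GFP+ and YFP- gates lie above 0.38 and the GFP- and YFP+ gates below 0.

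The pathway's neighbours were described by lists chosen with earlier results known. Of 12 genes of sterol uptake, export and storage, 2 rose and 5 fell in basal TEB cells, and 1 rose and 8 fell in luminal TEB cells, with medians of -0.10 and -0.32. Of all genes, 20.9% rose and 22.8% fell in basal and 20% rose and 18.6% fell in luminal cells. Abca1, which exports cholesterol, was 114 and 113 CPM in the Elf5 model and 125 and 162 CPM in the PR-cre model for basal TEBs, against 376 and 415 CPM in the Elf5 model and 317 and 341 CPM in the PR-cre model for basal ducts. The libraries did not overlap (log2 fold change -1.50 ± 0.23 SE, adjusted p = 0.000114), and in luminal cells it fell as well (-0.80 ± 0.16, adjusted p = 0.00134). Nr1h3, which encodes the sterol sensor LXR alpha, fell to 0.346 to 0.875 CPM in basal TEB libraries, against 1.64 to 3.36 CPM in duct libraries (log2 fold change -2.17 ± 0.36 SE, adjusted p = 0.000108), with -1.15 ± 0.23 in luminal cells (adjusted p = 0.000777). Mylip, whose product marks lipoprotein receptors for breakdown, fell in basal (-1.20 ± 0.26, adjusted p = 0.00183) and luminal cells (-1.81 ± 0.19, 4.28e-06). Lipa, the lysosomal lipase that frees cholesterol, was 11.1 to 99.960 CPM (median 34.2) in luminal TEB and 17.2 to 1561 CPM (median 171) in luminal duct libraries (log2 fold change -2.11 ± 0.20 SE, adjusted p = 2.69e-06). Scarb1, a lipoprotein receptor, rose in both, at 55.6 to 65.5 CPM in basal TEB libraries, against 16.6 to 28.0 CPM in basal duct libraries (log2 fold change 1.56 ± 0.20 SE, adjusted p = 1.13e-05), and by 0.51 ± 0.13 in luminal cells. Abcg1 and Nr1h2 fell in both compartments, Soat1 rose in basal cells, and Npc1 and Stard3 fell in luminal cells.

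**Figure D5:**
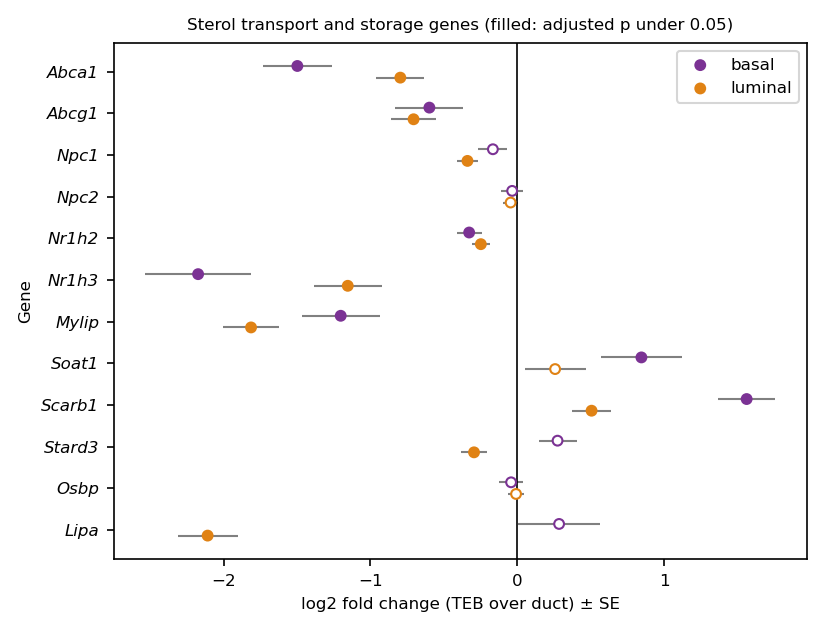
Points are log2 fold changes of TEB over duct with their SE for 12 genes of sterol transport and storage, in basal and luminal cells, filled where the adjusted p was under 0.05. Nr1h3, Abca1 and Mylip lie left of 0 in both, Scarb1 right of 0 in both, and Lipa is at -2.11 in luminal and 0.28 in basal cells.

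The other lists are read against the same shares of all genes. Of 8 genes that process SREBP, 2 rose and 1 fell in basal cells and 1 rose in luminal cells. The one that fell was Insig2, at 23.5 to 35.0 CPM in basal TEB, against 41.8 to 56.9 CPM in basal duct libraries, without overlap (log2 fold change -0.80 ± 0.09 SE, adjusted p = 1.92e-06), opposite to its paralog Insig1. Sec23a, of the coat that carries SREBP from the endoplasmic reticulum, rose in both (0.34 ± 0.09 in basal and 0.22 ± 0.06 in luminal cells). Of 11 isoprenoid genes, 3 rose and 1 fell in basal and 2 rose and 1 fell in luminal cells. Pdss1, of ubiquinone side chain synthesis, rose in luminal cells (log2 fold change 1.03 ± 0.15 SE, adjusted p = 4.87e-05), and Fnta, a farnesyltransferase subunit, fell in basal cells (log2 fold change -0.54 ± 0.09 SE, adjusted p = 8.53e-05). Of 17 further genes of fatty acid and glycerolipid synthesis, 3 rose and 4 fell in basal cells, close to those shares, and 3 rose and 6 fell in luminal cells. Acsl4, which activates long fatty acids, rose in luminal cells (log2 fold change 0.85 ± 0.08 SE, adjusted p = 5.4e-07), and Lpin1, a phosphatidate phosphatase, fell there (log2 fold change -1.09 ± 0.11 SE, adjusted p = 1.1e-06). Of 12 fatty acid oxidation genes, 2 rose and 5 fell in basal and 1 rose and 5 fell in luminal cells. Etfdh, which passes electrons to ubiquinone, fell in basal cells (log2 fold change -0.64 ± 0.05 SE, adjusted p = 1.09e-07).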

How the data were processed

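RNA was extracted from sorted cells with miRNeasy and DNase and made into libraries with TruSeq RNA v2, per the labels' protocols. The authors deposited raw read counts per gene, with featureCounts and mm10 named in the submitters' processing notes. For the aligner, versions, annotation release, strand setting and handling of multiply matching reads, the sources used here give nothing. The single files and the deposited table of counts held the same values (0 differences). Genes were named through RefSeq GRCm38.p6, which gave a symbol to 25275 of 27179 IDs; the other 1904 held 1.24% of counts and stayed in the fit.

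Counts were fitted with edgeR 4.0.16 (R 4.3.3), using its robust quasi-likelihood test, TMM scaling and filterByExpr (minimum count 10, total 15), in 1 model of 12 groups with 12 residual degrees of freedom. Contrasts averaged groups on the log2 scale, p-values were adjusted by Benjamini and Hochberg over 18109 genes, and 0.05 was the threshold. Each SE is the log2 fold change divided by the root of F. Members and lists were chosen with earlier results of these data known. All members may be named. Values by library are given for the 4 genes of each arm with the smallest p and every regulator in the TEB comparisons, for the smallest 2 of each arm elsewhere, and for some others. A gene of the wider lists that ranked among those to be named is not reported here. Totals of 31264622 to 52495208 counts put the floor of 3 counts at 0.0571 to 0.096 CPM, which covers counting error only. Alternatives were other scalings, no filter, DESeq2 1.42.0, limma-voom (limma 3.58.1), a non-robust fit, a replicate block, each library left out and the 2 keratinocyte libraries left out. The fatty acid score without Fads1 and Fads2 was added after seeing the data. The procedure was tested on simulated data.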

Additional observations from a re-analysis of the deposited data

Results flagged for a closer look

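In 8 of 204 sets of 4 libraries (34 genes in 6 sets), 1 library stood apart from the other 3 by the gap criterion. For 4 draws from 1 population, chance alone gives about 1 in 20, or 10.2 sets. Each set here pooled 2 gates that can differ, and sets share libraries, so this chance figure does not strictly apply. Of the 8 flagged sets, GFP- duct replicate 2, the library with the most keratinocyte transcripts, held 3. It had 8.05 CPM of Stard4 (other hormone side duct libraries 1.24 to 1.48 CPM), 487.7 CPM of Scd1 (142.4 to 194 CPM) and 168.6 CPM of Elovl6 (23.4 to 44.8 CPM). The 8 sebocyte markers also summed to their highest value of all libraries in GFP- duct replicate 2, at 104.9 CPM beside 51.9 CPM in replicate 1. Of these, Soat1 was 43.3 and 36.4 CPM, Far2 26.8 and 12.8 CPM and Fa2h 25.5 and 0.14 CPM in the same order. The part of the keratinocyte and sebocyte transcripts in these values was not tested. Among the other five, Msmo1 was 53.1 CPM in YFP+ TEB replicate 1 beside 36.0 to 37.7 CPM, and Sc5d was 54.3 CPM in YFP- duct replicate 2 beside 47.6 to 48.7 CPM. Srebf2 was 293 CPM in Elf5-model basal TEB replicate 1 beside 255 to 259 CPM. Fads1 was 416 CPM in GFP+ duct replicate 2 beside 519 to 536 CPM, and Fads2 was 81.0 CPM in Elf5-model basal duct replicate 1 beside 44.6 to 46.5 CPM.

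The signed log2 fold change of TEB over duct was higher in basal than in luminal cells, with adjusted p under 0.05 in edgeR's test of the difference, for 14 members. For Fads1 and Fads2 the change that was called on its own was the decrease in luminal cells. On the log2 scale the difference, basal minus luminal, was 1.75 for Msmo1, 1.31 for Mvd, 0.88 for Dhcr7, 0.65 for Sc5d, 0.64 for Idi1, 0.59 for Acat2, 0.47 for Cyp51 and 0.41 for Sqle. It was 1.00 for Insig1 and 0.69 for Scap, and 2.09 for Scd1, 2.02 for Elovl6, 1.18 for Fads1 and 1.04 for Fads2. Over the alternatives the difference ran from 1.82 to 2.30 for Scd1 and from 1.54 to 2.28 for Elovl6. Between the luminal lineages, progenitor side minus hormone side, it was 0.99 for Scd2, 0.51 for Elovl5 and -1.81 for Me1.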

How the results depend on the processing

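Over the 14 comparisons, no called member changed sign under another scaling, filter, tool, the non-robust fit, the replicate block or without the keratinocyte libraries, nor in the 24 fits that left out 1 library. Of members that were not called, Elovl6 alone was called with the other sign. In the comparison of the luminal lineages in ducts it turned to 0.35 without both keratinocyte libraries, and in GFP- cells to 0.85 without them and 0.87 without duct replicate 2. Uncalled values of other members crossed 0 without a call. In the basal TEB comparison 14 to 16 sterol and 4 to 7 fatty acid genes were called when 1 library was left out, and in the luminal one 11 to 16 and 6 to 8. The other ranges were 2 to 4 fatty acid genes for the basal minus luminal difference (2 without Elf5-model basal TEB replicate 1, Elf5-model basal duct replicate 2 or PR-cre-model basal duct replicate 1), 5 to 11 sterol genes for the lineages in TEBs (5 without YFP+ TEB replicate 1), and 0 to 1 sterol and 2 to 5 fatty acid genes for the lineage difference of the TEB effect. In single gates, fatty acid genes called ranged from 2 to 7 in basal cells of the Elf5 model, 2 to 4 of the PR-cre model, 2 to 6 in GFP+, 1 to 5 in GFP- and 0 to 4 in YFP+ cells, and sterol genes from 1 to 9 in GFP+, 1 to 10 in YFP-, 2 to 8 in GFP- and 1 to 6 in YFP+ cells. For the lineage difference of the TEB effect, sterol genes called numbered 1 with DESeq2 and 2 without the keratinocyte libraries, against 0 in the main test. Without those libraries the counts were 7 fatty acid genes in GFP+, 8 sterol genes in GFP-, and 4 sterol and 4 fatty acid genes in YFP+ cells. YFP+ cells had 1 sterol gene called with relative log expression scaling, with upper-quartile scaling and with no filter, and 3 fatty acid genes with DESeq2 and 2 with limma-voom, which also called 2 in basal cells of the PR-cre model. Taking the median over genes in place of the mean gave a TEB minus duct sterol score of 0.88 in basal cells, and fatty acid scores of 0.25 on the progenitor and 0.29 on the hormone side, and leaving Fads1 and Fads2 out of the mean, a choice made after seeing the data, 0.25 on the progenitor side. With the mean over all genes of the arm, fatty acid scores of TEBs were above those of ducts in YFP- (0.68 against 0.42) and YFP+ cells (-0.32 against -0.34). They were below in GFP+ (0.78 against 0.95) and GFP- cells (-0.61 against -0.55). With the median they were above in each luminal gate, so the direction depends on this choice. The causes were not tested.

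Within each gate, deviations of TEB and duct libraries with the same replicate number were correlated. The correlations were 0.057 and 0.039 in the basal gates and 0.085, 0.064, 0.101 and 0.102 in GFP+, YFP-, GFP- and YFP+ cells. The numbers were therefore not taken to pair TEB with duct samples of a gate. Pairing of libraries across gates was not tested. If gates share a preparation, the libraries pooled over gates are not independent, and the p-values of the pooled comparisons may be too small. In every TEB gate, the sterol and fatty acid scores of replicate 1 lay above those of replicate 2. In duct gates the order was mixed, with replicate 1 lower for both arms in YFP- and GFP- cells. The replicate block fitted a replicate difference for each mouse model over TEBs and ducts together, so it cannot take up one present in TEBs alone. With this block, 3 fatty acid genes were called in YFP+ cells, against 1 without. With 2 libraries a group and at least 31264622 counts each, the spread between libraries and not depth limits the precision.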
